A study of Mus musculus with 9 samples.

Results

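The genes of glycolysis and glycogen metabolism were followed in mouse heart cells through a list of 39 genes. The list runs from glucose uptake to lactate export, covers glycogen synthesis and breakdown, and ends with the catalytic subunits of AMP-activated protein kinase. A gene was measured through array probes annotated to that gene and no other, and where there were several, through whichever had the highest mean over 9 arrays. In this way 35 of the 39 genes were measured, among 19933 genes in all. The glucose phosphate isomerase gene Gpi1, the bifunctional enzyme gene Pfkfb1, the glyceraldehyde phosphate dehydrogenase gene Gapdh and the enolase gene Eno1 were not analysed here.

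Messenger RNA was profiled on Affymetrix mouse Gene 1.0 ST arrays in 3 kinds of mouse heart cells, with 3 biological replicates each according to the series' design text. The first were embryonic cardiomyocytes positive for Nkx-YFP, a yellow fluorescent reporter, and the others were cardiac fibroblasts from embryos and from adults. The stated purpose of the series was to look for factors made by fibroblasts that drive the division of myocytes. None of the groups carried a treatment or a mutation that the labels name. Which Nkx gene drives the reporter, the strain, the stage of the embryos, the age of the adults, the method by which the fibroblasts were obtained, any time in culture and any pooling of hearts are not stated in the sources used here. A gate on a reporter selects cells by the activity of its promoter, so the cardiomyocyte group is defined by that activity and not by contractile genes.

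Glycolysis splits glucose into pyruvate and yields energy without oxygen, and lactate dehydrogenase then exchanges pyruvate with lactate. Glycogen is the stored form of glucose, built on the protein glycogenin and cut by phosphorylase when energy is needed. The embryonic heart relies strongly on glycolysis and holds large glycogen stores, and striated muscle uses its own isoforms of several of these enzymes. AMP-activated protein kinase is switched on when cellular energy falls and acts on both pathways.

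The array values were on the log2 scale and are given for replicates 1, 2 and 3 of a group in that order. Mean levels are given ± SD over the 3 arrays of a group, and differences of group means as log2 differences ± the standard error of the fit (SE). Calls of higher or lower required a limma p under 0.05 after Benjamini-Hochberg adjustment over all 19933 genes, and the adjusted p-values printed for genes come from that fit. The replicates are described as biological, but nothing says which animals they came from. The p-values therefore weigh group differences against the spread between these samples only. Levels of different genes are not set against each other, because probes differ in brightness. Summed levels of a list are compared between arrays, and the brightest probes of the list weigh most in them. In bulk samples, fewer cells of a type and less RNA per cell cannot be told apart.

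Array medians lay between 7.602 and 7.651. The mean correlation of an array with its own group was 0.9936 to 0.9941 for cardiomyocytes, 0.9897 to 0.992 for embryonic fibroblasts and 0.9813 for adult fibroblast replicates 1 and 2. Adult fibroblast replicate 3 stood apart at 0.9699. The 10 cardiomyocyte markers, contractile and cardiac genes such as Myh6, Tnnt2 and Actc1, were not confined to the cardiomyocytes. Their summed level per array (2 to the power of the array value) ran from 61200 to 65470 in cardiomyocyte arrays, from 29060 to 40220 in embryonic fibroblast arrays and from 2614 to 4065 in adult fibroblast arrays. Of these 10 markers, 7 were called lower in embryonic fibroblasts than in cardiomyocytes, each at least 2-fold, beside 11.1% of all genes called lower. Cardiac troponin T, Tnnt2, was among the others, with a mean log2 level of 13.38 in embryonic fibroblasts against 13.82 in cardiomyocytes. Its difference was not called (adjusted p 0.329), though the arrays of the groups did not overlap. The cardiac factor gene Nkx2-5 was not called in any of the 3 comparisons, with mean log2 levels of 8.30, 8.25 and 8.23 in cardiomyocytes, embryonic and adult fibroblasts. All 10 fibroblast markers were called higher in each fibroblast group than in the cardiomyocytes, beside 10.3% (embryonic) and 17.4% (adult) of all genes. Both groups labelled as fibroblasts thus held higher levels of fibroblast markers than the cardiomyocytes, which does not show how pure they were. Endothelial markers (7 of 7) and macrophage markers (5 of 7) were also called higher in embryonic fibroblasts than in cardiomyocytes. Each count fell to as low as 3 when single arrays were left out. The embryonic fibroblast samples also held abundant cardiomyocyte transcripts. The share of those transcripts in the differences described below was not tested.

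**Figure D1:**
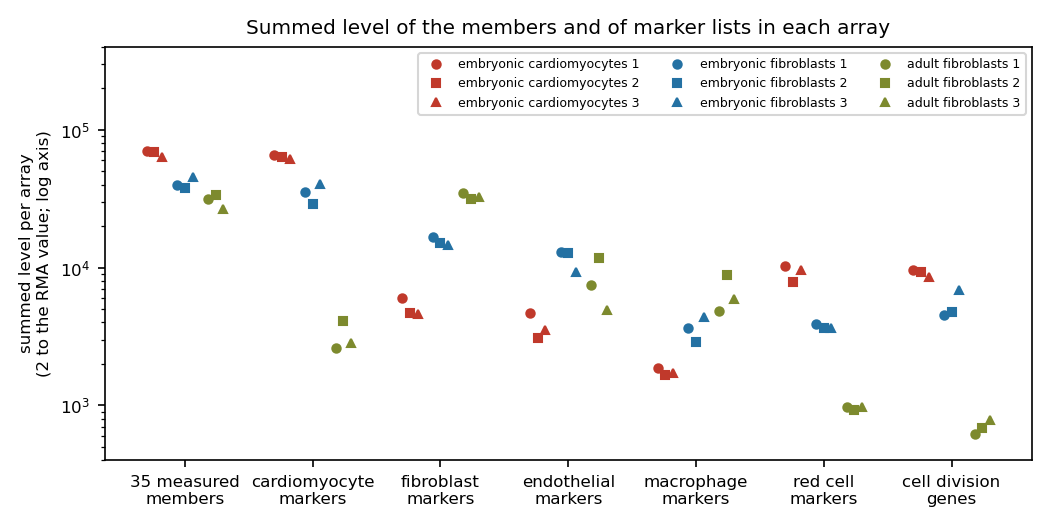
Summed level per array (2 to the power of the array value, log axis) of the 35 measured genes and of marker lists, with 1 point for each array, coloured by group and shaped by replicate. The cardiomyocyte marker sum is 29060 to 40220 in embryonic fibroblasts against 2614 to 4065 in adult fibroblasts, and the sum over the 35 genes is highest in the cardiomyocytes.

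Most of the measured genes were highest in the cardiomyocytes and lowest in the adult fibroblasts. In embryonic fibroblasts, 24 of the 35 were called lower than in cardiomyocytes and 3 higher. The 3 were the fructose bisphosphate regulator Pfkfb3, Pgm2 of the phosphoglucomutase family and the AMP kinase subunit Prkaa1. Of all genes 21.4% were called in this comparison, 11.1% lower and 10.3% higher. The median log2 difference of the 35 genes was -0.95, beside -0.0003 for all genes. In 19 of the 35 the called difference was at least 2-fold, against 5.08% of all genes. No array of one group overlapped the other for 33 of the 35 genes, 30 of them lower and 3 higher, against 39.1% of all genes.

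Between the fibroblast groups, 17 of the 35 were called higher in embryonic than in adult cells and 4 lower. The 4 were the hexokinase Hk2, the phosphofructokinase subunit Pfkp, Pgm2 and the glycogen branching enzyme Gbe1. Of all genes 19.5% were called, 11.2% higher and 8.34% lower. The median log2 difference was 0.49, beside -0.04 for all genes, and 10 of the 35 were called at 2-fold or more, against 6.18% of all genes. Groups did not overlap for 19 genes higher and 3 lower in the embryonic cells, against 33% of all genes in either direction.

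In adult fibroblasts, 27 of the 35 were called lower than in cardiomyocytes and 4 higher, those being Hk2, Pfkfb3, Pgm2 and Prkaa1. Of all genes 35.6% were called, 18.2% lower and 17.4% higher. The median log2 difference was -1.47, beside 0.06 for all genes, and 23 of the 35 passed 2-fold, against 13.3% of all genes. Arrays did not overlap for 28 genes lower and 4 higher, against 45.9% of all genes. Each group enters 2 of these 3 comparisons, so they share samples and are not independent of each other. By group means, 24 of the 35 genes, or 68.6%, ran from cardiomyocytes through embryonic to adult fibroblasts in falling order, as did 21.5% of all genes.

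The arrays within a group also differed in step across these genes. Embryonic fibroblast replicate 3 gave the highest value of its group for 23 of the 35 genes, and for 30.2% of all genes. Replicate 2 of that group gave the lowest for 20, and for 27.3% of all genes. The cardiomyocyte marker sum was likewise highest, at 40220, in replicate 3 and lowest, at 29060, in replicate 2. Cardiomyocyte replicate 3 was lowest of its group for 28 genes and adult fibroblast replicate 3 for 25, against 39.2% and 32.1% of all genes. The cardiomyocyte marker sum was also lowest in cardiomyocyte replicate 3, at 61200. Among adult fibroblasts it was lowest in replicate 1, at 2614, against 2823 in replicate 3. Left out of the fit, adult fibroblast replicate 3 raised the count of genes called lower in embryonic fibroblasts than in cardiomyocytes from 24 to 30, while the share of all genes called rose to 27.8%. Without it Slc2a1, Hk2, Pfkfb2, Pgk1, Pgam1 and Ldha were added to those called.

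**Figure D2:**
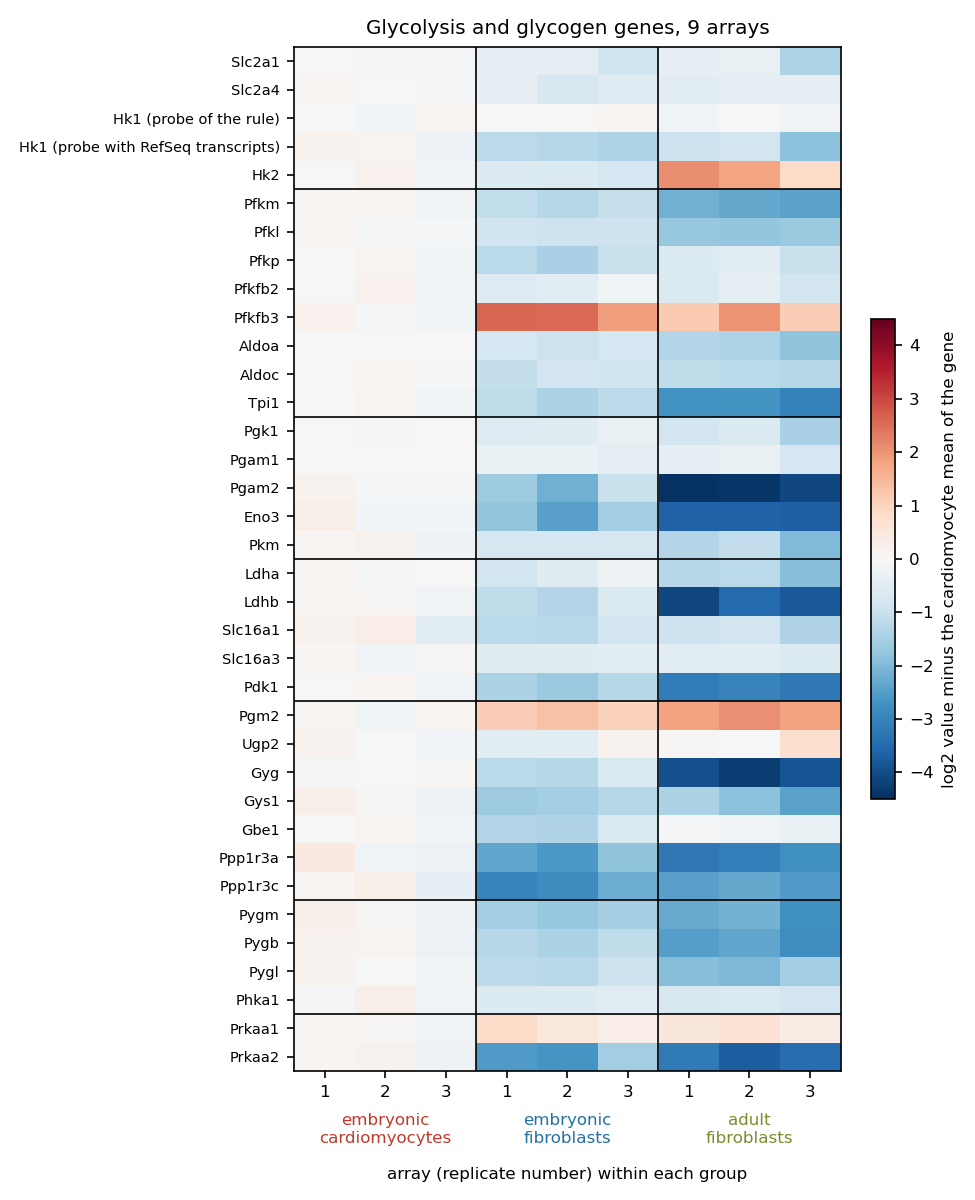
Log2 value in each of the 9 arrays minus the cardiomyocyte mean of the same gene, 1 row a gene in the order of the text, with both Hk1 probes shown. Blue cells are below and red cells above the cardiomyocyte mean. Most rows deepen in blue from embryonic to adult fibroblasts, while Hk2, Pfkfb3, Pgm2 and Prkaa1 carry red.

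**Figure D3:**
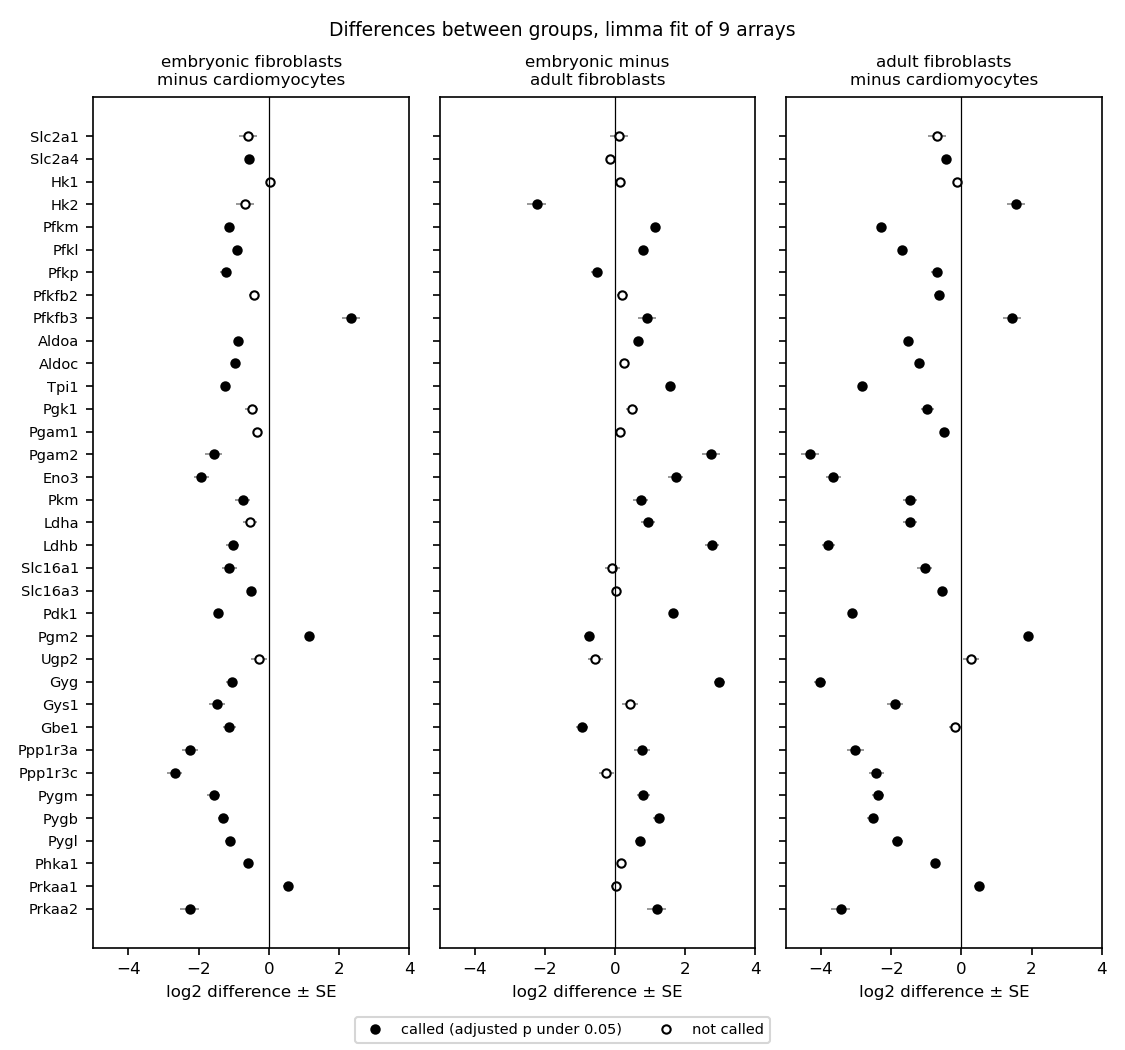
Log2 difference of group means ± SE from the limma fit of 9 arrays for the 35 genes, in 3 panels for the 3 comparisons, with filled points called at an adjusted p under 0.05. Filled points left of 0 number 24 in the first panel and 27 in the last, and in the middle panel 17 lie right of 0.

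Promoters are shown for genes of contrasting behaviour, since many of the genes moved together. Pgam2 and Ppp1r3a, muscle forms described below, hold a match to the site of MEF2, a factor of muscle gene control. The only other listed gene with such a match was Pfkfb1. The muscle forms Pfkm, Aldoa, Eno3, Gys1, Pygm and Phka1 held none. Ppp1r3c and Ldha hold the letters ACGTG, the core of the element bound by hypoxia-inducible factors, and so do Pfkfb3, called higher in both fibroblast groups than in cardiomyocytes, and Hk2, called higher in adult fibroblasts. Each run is the 250 bases before a transcription start from RefSeq on GRCm38.p6. It reads 5′ to 3′ in the direction of the gene, with matches on either strand in capitals. Ldha and Pfkfb3 have 2 windows each, from different starts. The window printed was chosen for holding the most matches to the motif, so the other window may differ. Pgam2 lies at chr11:5803797-5804046 (minus strand), Ppp1r3a at chr6:14755275-14755524 (minus), Ppp1r3c at chr19:36736605-36736854 (minus), Ldha at chr7:46845554-46845803 (plus), Pfkfb3 at chr2:11502091-11502340 (minus) and Hk2 at chr6:82774455-82774704 (minus).
Pgam2: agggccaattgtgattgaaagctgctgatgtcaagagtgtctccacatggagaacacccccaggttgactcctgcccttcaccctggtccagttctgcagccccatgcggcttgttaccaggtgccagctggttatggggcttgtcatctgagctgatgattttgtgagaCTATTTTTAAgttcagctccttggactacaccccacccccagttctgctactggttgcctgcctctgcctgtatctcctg
Ppp1r3a: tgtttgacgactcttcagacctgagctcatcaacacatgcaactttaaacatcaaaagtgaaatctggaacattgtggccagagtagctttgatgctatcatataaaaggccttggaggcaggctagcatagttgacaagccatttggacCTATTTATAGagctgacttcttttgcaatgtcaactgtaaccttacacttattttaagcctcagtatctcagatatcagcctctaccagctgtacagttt
Ppp1r3c: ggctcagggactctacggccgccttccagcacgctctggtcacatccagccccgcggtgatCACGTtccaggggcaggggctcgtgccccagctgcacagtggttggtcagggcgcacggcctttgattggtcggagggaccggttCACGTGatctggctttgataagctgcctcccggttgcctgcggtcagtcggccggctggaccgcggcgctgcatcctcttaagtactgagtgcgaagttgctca
Ldha: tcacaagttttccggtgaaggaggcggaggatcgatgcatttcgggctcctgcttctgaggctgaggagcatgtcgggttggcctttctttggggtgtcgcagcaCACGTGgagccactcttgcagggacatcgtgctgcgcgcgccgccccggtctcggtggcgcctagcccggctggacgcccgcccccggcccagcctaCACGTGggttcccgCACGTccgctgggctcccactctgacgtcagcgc
Pfkfb3: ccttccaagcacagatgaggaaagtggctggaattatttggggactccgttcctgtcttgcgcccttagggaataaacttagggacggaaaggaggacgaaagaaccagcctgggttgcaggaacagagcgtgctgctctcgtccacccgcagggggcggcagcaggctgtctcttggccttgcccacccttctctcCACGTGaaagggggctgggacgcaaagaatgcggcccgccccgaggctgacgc
Hk2: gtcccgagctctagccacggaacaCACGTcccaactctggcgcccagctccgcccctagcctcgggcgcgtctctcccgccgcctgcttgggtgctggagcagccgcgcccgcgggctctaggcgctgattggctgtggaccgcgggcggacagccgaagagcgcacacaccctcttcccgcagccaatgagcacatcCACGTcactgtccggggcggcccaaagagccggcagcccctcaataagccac
The first base of the match lay 80 bases before the start in Pgam2 and 100 bases before it in Ppp1r3a. In Ldha the matches began 145, 48 and 34 bases before the start, the first and second of them reading CACGTG.

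Promoter windows were found for 38 of the 39 listed genes, 57 windows in all, with none for Slc2a4. On either strand, ACGTG occurred in 22 of the 57 windows (38.6%, 18 genes) and in 16.6% of all 32851 windows. Windows of the listed genes were also richer in G and C, with a median of 60% against 52.4%. The longer CACGTG, which contains ACGTG and is itself a form of CANNTG, was in 10.5% of the listed genes' windows and 6.02% of all. The MEF2 site was in 5.26% and 2.92%, and CANNTG in 68.4% and 66.2%. CCAAT stood at 31.6% and 33.8%, TATAAA at 3.51% and 12.4%, and AAGGTCA at 3.51% and 4.08%. The CArG box of serum response factor was in 0 of the 57 and in 1.47% of all. These 8 motifs were chosen after the expression values had been seen. A match describes letters in the sequence, and what part any motif had in the expression differences was not tested.

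Of the 4 measured genes of glucose entry, 1 was called lower in embryonic fibroblasts than in cardiomyocytes, 1 was called lower in embryonic than adult fibroblasts, and adult fibroblasts against cardiomyocytes gave 1 higher and 1 lower, while 21.4%, 19.5% and 35.6% of all genes were called in these comparisons. With the other Hk1 probe, Hk1 too would be lower in both comparisons with cardiomyocytes. Slc2a4, the insulin-responsive transporter GLUT4, ranged in log2 level from 7.92 to 8.09 in the cardiomyocytes, 7.29 to 7.63 in embryonic and 7.49 to 7.63 in adult fibroblasts. It was called lower in both fibroblast groups than in cardiomyocytes, with log2 differences of -0.57 ± 0.10 (adjusted p 0.0034) and -0.43 ± 0.10 (adjusted p 0.00762). The basal transporter Slc2a1, GLUT1, ran from 10.08 to 10.18, 9.23 to 9.70 and 8.73 to 9.78 in log2 level in the same order of groups. Its log2 differences from cardiomyocytes, -0.58 ± 0.26 and -0.70 ± 0.26, were not called (adjusted p 0.154 and 0.0605). The lowest of its adult arrays was replicate 3. Without that array the first difference reached an adjusted p of 0.00652, and the second shrank to -0.36 and was not called. The second reached an adjusted p of 0.0351 to 0.0424 without adult fibroblast replicate 1 or 2. The change of Slc2a4 relative to Slc2a1 within arrays overlapped between all groups.

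Hk2, the hexokinase of muscle and insulin-responsive tissue, was highest in the adult fibroblasts. Its log2 levels were 9.10, 9.29 and 8.95 across cardiomyocyte arrays, 8.48, 8.47 and 8.36 across embryonic fibroblast arrays and 11.19, 10.87 and 9.96 across adult fibroblast arrays. The adult fibroblast arrays lay above all others and the embryonic fibroblast arrays below all others, although adult replicate 3 was well below its fellows. Adult fibroblasts were called higher than cardiomyocytes by 1.56 ± 0.26 on the log2 scale (2.95-fold, adjusted p 0.00113), and embryonic fibroblasts lower than adult ones by a log2 difference of -2.24 ± 0.26 (4.71-fold, adjusted p 0.000323). Embryonic fibroblasts minus cardiomyocytes gave -0.67 ± 0.26, not called (adjusted p 0.105), and called without adult fibroblast replicate 3 (adjusted p 0.00215).

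Hk1, the widely expressed hexokinase, had 2 probes that differed. The probe with the highest mean, used by the rule, gave log2 levels of 12.58, 12.46 and 12.73 across cardiomyocyte arrays, 12.58, 12.57 and 12.72 across embryonic fibroblast arrays and 12.41, 12.57 and 12.43 across adult fibroblast arrays. All groups overlapped, and no difference was called, the largest being 0.15 ± 0.09 between embryonic and adult fibroblasts (adjusted p 0.31). This probe is tied to Hk1 by 1 sequence and by 0 RefSeq transcripts, and the same sequence is listed for 16 probes that name Hk1 together with the ribosomal protein gene Rpl17, whose means run from 11.9002 to 13.1621. The other probe, tied to 2 RefSeq transcripts of Hk1, gave log2 levels of 10.41, 10.37 and 10.01 across cardiomyocyte arrays, 9.09, 8.99 and 8.89 across embryonic fibroblast arrays and 9.35, 9.45 and 8.42 across adult fibroblast arrays. On it, both fibroblast groups lay below all cardiomyocyte arrays, by log2 differences of -1.27 ± 0.25 for embryonic and -1.19 ± 0.25 for adult fibroblasts. In a fit of all probes these had adjusted p-values of 0.00782 and 0.00522. The values of Hk1 in the counts above are those of the first probe. With the second probe the genes called lower became 25 in embryonic and 28 in adult fibroblasts against cardiomyocytes.

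Of the upper glycolytic genes, 8 of 10 were measured. In embryonic fibroblasts 6 were called lower than in cardiomyocytes and 1 higher, and in adult fibroblasts 7 lower and 1 higher. Embryonic fibroblasts were called higher than adult ones for 5 and lower for 1. The shares of all genes called either way in these comparisons were 21.4%, 35.6% and 19.5%. Phosphofructokinase, the committed step, is built of muscle (Pfkm), liver (Pfkl) and platelet (Pfkp) type subunits.

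Pfkm had log2 levels of 9.70, 9.70 and 9.45 across cardiomyocyte arrays, 8.52, 8.35 and 8.58 across embryonic fibroblast arrays and 7.45, 7.33 and 7.22 across adult fibroblast arrays. The groups stood apart in falling order without overlap. Embryonic fibroblasts were lower than cardiomyocytes by a log2 difference of -1.14 ± 0.10 (2.20-fold, adjusted p 0.000155) and adult fibroblasts by -2.28 ± 0.10 (4.87-fold, adjusted p 4.2e-07). Pfkl took the same order, with log2 levels of 8.80, 8.61 and 8.63 across cardiomyocyte arrays, 7.80, 7.76 and 7.75 across embryonic fibroblast arrays and 6.99, 6.94 and 7.01 across adult fibroblast arrays. Its log2 differences from cardiomyocytes were -0.92 ± 0.08 in embryonic and -1.70 ± 0.08 in adult fibroblasts (adjusted p 8.59e-05 and 3.53e-07). Pfkp did not keep that order. Its log2 levels were 10.96, 11.06 and 10.82 across cardiomyocyte arrays, 9.72, 9.48 and 9.94 across embryonic fibroblast arrays and 10.35, 10.44 and 9.94 across adult fibroblast arrays. Both fibroblast groups lay below the cardiomyocytes, by -1.23 ± 0.16 in embryonic and -0.70 ± 0.16 in adult cells on the log2 scale (adjusted p 0.000647 and 0.00571). Embryonic fibroblasts were called lower than adult ones by -0.52 ± 0.16 (adjusted p 0.0423), with arrays that touch, embryonic replicate 3 lying above adult replicate 3. That last call was lost when any 1 of 7 arrays was left out, all but those same 2, at adjusted p-values of 0.059 to 0.149.

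Differences between subunits were taken within each array. RMA compresses the differences of dim genes, so a shift in a pair with a dim member may be understated. It may be overstated where the dim member is the one subtracted, as with Pfkl in adult fibroblasts (mean log2 level of 6.98). Pfkm minus Pfkp shifted by a log2 change of -1.58 in adult fibroblasts against cardiomyocytes, with differences within arrays of -3.11 to -2.72 against -1.37 to -1.26. Embryonic fibroblasts and cardiomyocytes overlapped in this measure (change of 0.09, exact permutation p 0.4). Pfkm minus Pfkl shifted by -0.58 on the log2 scale in adult fibroblasts against cardiomyocytes, without overlap. With 3 arrays against 3 the exact two-sided permutation test cannot go below p = 0.1, which becomes 0.157 after adjustment over the 33 comparisons of 11 isoform pairs, so no pair comparison could be called.

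The bifunctional enzymes make and remove the bisphosphate that activates phosphofructokinase, and Pfkfb3 is their inducible, strongly activating form. Pfkfb3 had log2 levels of 8.78, 8.52 and 8.45 across cardiomyocyte arrays, 11.18, 11.13 and 10.47 across embryonic fibroblast arrays and 9.75, 10.60 and 9.70 across adult fibroblast arrays. All 6 fibroblast arrays lay above all cardiomyocyte arrays. The log2 difference from cardiomyocytes was 2.34 ± 0.26 in embryonic fibroblasts (5.08-fold, adjusted p 0.000366) and 1.44 ± 0.26 in adult fibroblasts (2.70-fold, adjusted p 0.00182). Embryonic fibroblasts were called higher than adult ones by 0.91 ± 0.26 (adjusted p 0.0365), but the arrays overlapped, adult replicate 2 lying above embryonic replicate 3. The last of these calls was lost when any 1 of 7 arrays was left out, all but these 2, with adjusted p-values of 0.0565 to 0.131. Pfkfb2, the heart form, ranged in log2 level from 8.71 to 9.09 in cardiomyocytes, 8.31 to 8.68 in embryonic and 8.06 to 8.48 in adult fibroblasts. It was called lower in adult fibroblasts than cardiomyocytes (-0.63 ± 0.15, adjusted p 0.00737). In embryonic fibroblasts the log2 difference of -0.42 ± 0.15 was not called (adjusted p 0.0731), though it was at 0.0415 to 0.0443 without embryonic or adult fibroblast replicate 3.

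Aldolase splits the resulting sugar bisphosphate, and triose phosphate isomerase, Tpi1, interconverts its products. Aldoa, the muscle aldolase, had log2 levels of 12.21, 12.26 and 12.21 across cardiomyocyte arrays, 11.42, 11.24 and 11.42 across embryonic fibroblast arrays and 10.89, 10.83 and 10.41 across adult fibroblast arrays. Its groups did not overlap, and it was called lower than in cardiomyocytes by -0.86 ± 0.12 in embryonic and -1.52 ± 0.12 in adult fibroblasts on the log2 scale (adjusted p 0.00126 and 1.15e-05). Aldoc, known from brain, read 8.52, 8.59 and 8.43 across cardiomyocyte arrays, 7.44, 7.65 and 7.61 across embryonic fibroblast arrays and 7.38, 7.30 and 7.24 across adult fibroblast arrays on the log2 scale. It too was called lower in both fibroblast groups than in cardiomyocytes, by log2 differences of -0.95 ± 0.08 and -1.21 ± 0.08 (adjusted p 0.000138 and 4.35e-06). Embryonic minus adult fibroblasts gave 0.26 ± 0.08, not called (adjusted p 0.0608), and 0.0448 without embryonic fibroblast replicate 1. Aldoa relative to Aldoc overlapped between cardiomyocytes and embryonic fibroblasts (log2 change of 0.08) and differed without overlap by -0.31 between adult fibroblasts and cardiomyocytes (-0.19 without adult fibroblast replicate 3).

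Tpi1 showed the widest range of the upper glycolytic genes between adult fibroblasts and cardiomyocytes. Its log2 levels were 11.96, 12.09 and 11.85 across cardiomyocyte arrays, 10.83, 10.54 and 10.78 across embryonic fibroblast arrays and 9.24, 9.27 and 8.93 across adult fibroblast arrays. The 3 groups did not overlap, and the log2 differences were -1.25 ± 0.12 for embryonic fibroblasts minus cardiomyocytes (2.38-fold, adjusted p 0.000201), 1.57 ± 0.12 for embryonic minus adult fibroblasts (2.97-fold, adjusted p 2.42e-05) and -2.82 ± 0.12 for adult fibroblasts minus cardiomyocytes (7.06-fold, adjusted p 3.02e-07).

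In lower glycolysis, 5 of 7 genes were measured. All 5 were called lower in adult fibroblasts than in cardiomyocytes, 3 of 5 lower in embryonic fibroblasts than in cardiomyocytes, and 3 of 5 higher in embryonic than in adult fibroblasts. The shares of all genes called in those directions were 18.2%, 11.1% and 11.2%. Phosphoglycerate mutase has a general form, Pgam1, and a muscle form, Pgam2. Pgam2 had log2 levels of 12.34, 12.12 and 12.12 across cardiomyocyte arrays, 10.61, 10.04 and 11.21 across embryonic fibroblast arrays and 7.75, 7.80 and 8.10 across adult fibroblast arrays. The 3 groups were far apart, with embryonic fibroblast arrays spread over more than 1 log2 unit and replicate 3 the highest of them. Adult fibroblasts were lower than cardiomyocytes by a log2 difference of -4.31 ± 0.25 (19.9-fold, adjusted p 1.41e-06), the largest difference among the 35 genes in any comparison. Embryonic fibroblasts were lower than cardiomyocytes by -1.57 ± 0.25 (2.98-fold, adjusted p 0.0019) and higher than adult fibroblasts by 2.74 ± 0.25 (6.67-fold, adjusted p 6.64e-05).

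Pgam1 had a narrower range, with log2 levels of 9.47, 9.44 and 9.42 across cardiomyocyte arrays, 9.15, 9.15 and 9.03 across embryonic fibroblast arrays and 9.08, 9.10 and 8.70 across adult fibroblast arrays. It was called lower in adult fibroblasts than in cardiomyocytes (-0.48 ± 0.11, adjusted p 0.00709). In embryonic fibroblasts the log2 difference from cardiomyocytes of -0.33 ± 0.11 was not called (adjusted p 0.0609), and was at 0.00498 without adult fibroblast replicate 3. Another of the 3 Pgam1 probes held identical values, so near-identical copies may share its signal. Within arrays, Pgam2 minus Pgam1 ran from 2.68 to 2.87 in cardiomyocytes, 0.89 to 2.18 in embryonic and -1.33 to -0.60 in adult fibroblasts on the log2 scale. The difference between the forms shifted from the cardiomyocyte mean by -1.24 in embryonic and by -3.83 in adult fibroblasts, without overlap.

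Eno3, the muscle enolase, had log2 levels of 11.82, 11.43 and 11.42 across cardiomyocyte arrays, 9.79, 9.10 and 10.03 across embryonic fibroblast arrays and 7.93, 7.91 and 7.89 across adult fibroblast arrays. No arrays of different groups overlapped, and embryonic fibroblast replicate 2 was the lowest and replicate 3 the highest of their group. The log2 difference from cardiomyocytes was -1.92 ± 0.21 in embryonic (3.78-fold, adjusted p 0.000366) and -3.65 ± 0.21 in adult fibroblasts (12.5-fold, adjusted p 1.6e-06). Pgk1, the kinase that yields the first energy return of the pathway, ranged in log2 level from 13.07 to 13.15 in cardiomyocytes, 12.53 to 12.77 in embryonic and 11.64 to 12.45 in adult fibroblasts. Only the adult difference from cardiomyocytes was called (-0.97 ± 0.18, adjusted p 0.00221). Embryonic fibroblasts minus cardiomyocytes (-0.48 ± 0.18, adjusted p 0.094) was at an adjusted p of 0.00312 without adult fibroblast replicate 3, and embryonic minus adult fibroblasts (0.49 ± 0.18, adjusted p 0.1) at 0.0367 without adult fibroblast replicate 2. A further Pgk1 probe held the same values as the one used, and the remaining probe gave log2 differences of -0.43, 0.39 and -0.82 for embryonic fibroblasts minus cardiomyocytes, embryonic minus adult fibroblasts and adult fibroblasts minus cardiomyocytes.

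Pkm, the pyruvate kinase gene, gave log2 levels of 11.16, 11.26 and 10.84 across cardiomyocyte arrays, 10.34, 10.33 and 10.34 across embryonic fibroblast arrays and 9.76, 9.98 and 9.10 across adult fibroblast arrays. Its groups did not overlap, and adult fibroblast replicate 3 was the lowest array. The log2 difference was -1.47 ± 0.20 for adult fibroblasts minus cardiomyocytes (adjusted p 0.000335). Embryonic fibroblasts were called lower than cardiomyocytes (-0.75 ± 0.20, adjusted p 0.0276) and higher than adult fibroblasts (0.73 ± 0.20, adjusted p 0.0335), but both calls depended on single arrays. Without adult fibroblast replicate 3 the second difference was 0.47 and was still called. The first was lost without cardiomyocyte replicate 1 or 2 or any single embryonic fibroblast array (adjusted p 0.0664 to 0.106), and the second without cardiomyocyte replicate 1 or any single embryonic fibroblast array (0.0566 to 0.0924). A second Pkm probe gave log2 differences of -0.45, 0.58 and -1.02 in the order used for Pgk1.

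Genes of lactate and pyruvate handling fell from cardiomyocytes to adult fibroblasts in 5 of 5 cases and to embryonic fibroblasts in 4 of 5, and 3 of 5 were higher in embryonic than adult fibroblasts. Beside these calls, 18.2%, 11.1% and 11.2% of all genes were called in the same directions. Lactate dehydrogenase is built of Ldha subunits, typical of lactate-producing tissue, and Ldhb subunits, typical of heart. Ldhb had log2 levels of 11.81, 11.76 and 11.55 across cardiomyocyte arrays, 10.58, 10.37 and 11.08 across embryonic fibroblast arrays and 7.62, 8.22 and 7.91 across adult fibroblast arrays. The adult fibroblasts stood far below both embryonic groups. Their log2 difference from cardiomyocytes was -3.79 ± 0.20 (13.8-fold, adjusted p 8.46e-07), while embryonic fibroblasts differed from cardiomyocytes by -1.03 ± 0.20 (2.04-fold, adjusted p 0.00512) and from adult fibroblasts by 2.76 ± 0.20 (6.78-fold, adjusted p 1.63e-05). A second Ldhb probe gave -2.79, -0.81 and 1.97 in these comparisons.

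Ldha had log2 levels of 11.59, 11.44 and 11.48 across cardiomyocyte arrays, 10.69, 10.96 and 11.28 across embryonic fibroblast arrays and 10.21, 10.31 and 9.58 across adult fibroblast arrays. Embryonic fibroblast replicate 3 was the closest of the fibroblast arrays to the cardiomyocytes, and adult fibroblast replicate 3 the lowest of all. It was called lower in adult fibroblasts than in cardiomyocytes (-1.47 ± 0.20, 2.77-fold, adjusted p 0.000306) and higher in embryonic than in adult fibroblasts (0.95 ± 0.20, adjusted p 0.00875). Embryonic fibroblasts minus cardiomyocytes gave -0.52 ± 0.20, which was not called (adjusted p 0.101) except without adult fibroblast replicate 3 (0.0185). Within arrays, Ldhb minus Ldha ran from 0.08 to 0.32 in cardiomyocytes, -0.59 to -0.11 in embryonic and -2.59 to -1.67 in adult fibroblasts. From the cardiomyocyte mean, this difference shifted by -0.51 in embryonic and by -2.32 in adult fibroblasts on the log2 scale, without overlap.

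**Figure D4:**
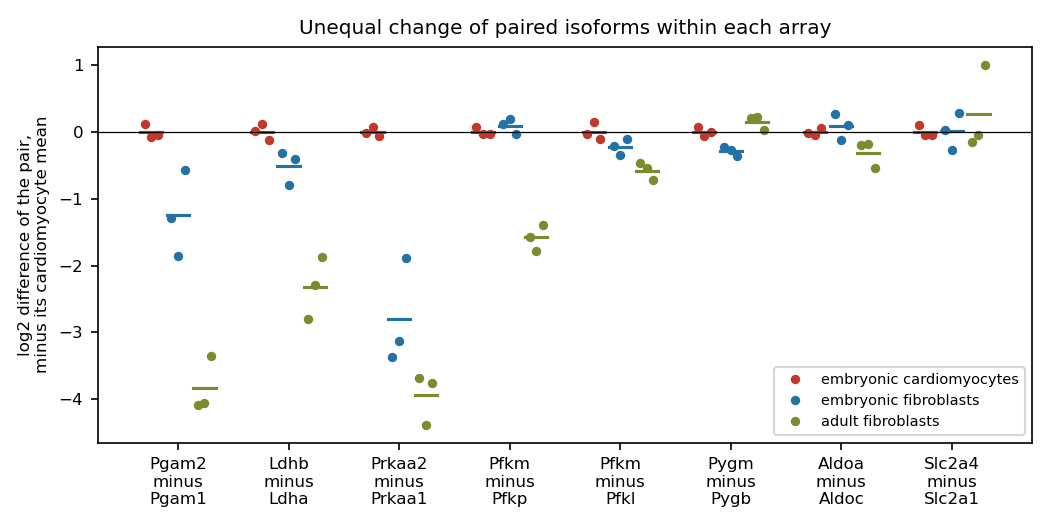
Log2 difference between isoforms within each array, minus its cardiomyocyte mean, for 8 of the 11 pairs, with 1 point for each array and a bar at each group mean. The pairs with Pgam2, Ldhb and Prkaa2 lie furthest below the cardiomyocyte mean in adult fibroblasts, at -3.83, -2.32 and -3.94, and Slc2a4 minus Slc2a1 overlaps between the groups.

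Lactate leaves and enters cells through monocarboxylate transporters. Slc16a1 gave log2 levels of 9.50, 9.63 and 8.84 across cardiomyocyte arrays, 8.10, 8.06 and 8.45 across embryonic fibroblast arrays and 8.39, 8.47 and 7.98 across adult fibroblast arrays. Its cardiomyocyte arrays were spread, replicate 3 being lowest, yet all lay above the fibroblast arrays. The log2 difference from cardiomyocytes was -1.12 ± 0.21 in embryonic and -1.04 ± 0.21 in adult fibroblasts (adjusted p 0.00523 and 0.00396). Slc16a3, the form of lactate-exporting cells, gave log2 levels of 9.11, 8.90 and 9.09 across cardiomyocyte arrays, 8.48, 8.50 and 8.57 across embryonic fibroblast arrays and 8.51, 8.57 and 8.37 across adult fibroblast arrays. It was lower than in cardiomyocytes by -0.52 ± 0.09 and -0.55 ± 0.09 on the log2 scale (adjusted p 0.00262 and 0.000765). Neither transporter was called between the fibroblast groups (adjusted p 0.834 and 0.829), and Slc16a3 minus Slc16a1 overlapped between all groups.

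Pdk1, a kinase that inhibits pyruvate dehydrogenase and so limits the entry of pyruvate into mitochondrial oxidation, had log2 levels of 10.15, 10.21 and 10.02 across cardiomyocyte arrays, 8.70, 8.46 and 8.86 across embryonic fibroblast arrays and 6.99, 7.14 and 6.90 across adult fibroblast arrays. The 3 groups were widely separated. Embryonic fibroblasts were lower than cardiomyocytes (2.74-fold, adjusted p 7.27e-05) and higher than adult fibroblasts by 1.66 ± 0.11 (3.17-fold, adjusted p 1.28e-05). Adult fibroblasts were lower than cardiomyocytes by a log2 difference of -3.12 ± 0.11 (8.68-fold, adjusted p 1.94e-07).

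The genes of glycogen synthesis did not all take the same direction. Of 7 genes, 5 were called lower and 1 higher in embryonic fibroblasts than in cardiomyocytes, and 4 lower and 1 higher in adult fibroblasts. The gene called higher was Pgm2 in both, and its name is taken up below. Embryonic against adult fibroblasts gave 2 higher and 2 lower. The shares of all genes called either way in these comparisons were 21.4%, 35.6% and 19.5%. Gyg, glycogenin, the protein primer on which each glycogen particle starts, had log2 levels of 12.34, 12.43 and 12.49 across cardiomyocyte arrays, 11.22, 11.12 and 11.75 across embryonic fibroblast arrays and 8.47, 8.16 and 8.54 across adult fibroblast arrays. Adult fibroblasts lay more than 2 log2 units below every other array. The log2 difference from cardiomyocytes was -4.03 ± 0.16 in adult fibroblasts (16.3-fold, adjusted p 2.57e-07) and -1.06 ± 0.16 in embryonic ones (2.08-fold, adjusted p 0.00187). Between the fibroblast groups it was 2.97 ± 0.16 (7.85-fold, adjusted p 3.68e-06), the largest of the 35 genes in that comparison.

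Gys1, the muscle glycogen synthase, had log2 levels of 9.67, 9.51 and 9.20 across cardiomyocyte arrays, 7.84, 7.94 and 8.18 across embryonic fibroblast arrays and 8.04, 7.63 and 7.04 across adult fibroblast arrays. Both fibroblast groups lay below the cardiomyocytes and overlapped with each other. Log2 differences from cardiomyocytes were -1.47 ± 0.23 in embryonic and -1.89 ± 0.23 in adult fibroblasts (adjusted p 0.00191 and 0.000147), and the fibroblast groups were not called apart (0.42 ± 0.23, adjusted p 0.259). Gbe1, the branching enzyme, behaved otherwise, with log2 levels of 10.86, 10.97 and 10.68 across cardiomyocyte arrays, 9.51, 9.48 and 10.16 across embryonic fibroblast arrays and 10.78, 10.67 and 10.54 across adult fibroblast arrays. Only the embryonic fibroblasts were low. They were called lower than cardiomyocytes by -1.12 ± 0.18 (adjusted p 0.0019) and lower than adult fibroblasts by -0.95 ± 0.18 (adjusted p 0.00437), while adult fibroblasts minus cardiomyocytes gave -0.17 ± 0.18, not called (adjusted p 0.487).

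Protein phosphatase subunits that dock on glycogen switch synthase on and phosphorylase off. Ppp1r3a, the muscle form, had log2 levels of 9.69, 9.12 and 9.02 across cardiomyocyte arrays, 6.93, 6.68 and 7.47 across embryonic fibroblast arrays and 6.06, 6.19 and 6.51 across adult fibroblast arrays. Log2 differences from cardiomyocytes were -2.25 ± 0.23 in embryonic (4.75-fold, adjusted p 0.000265) and -3.02 ± 0.23 in adult fibroblasts (8.12-fold, adjusted p 7.78e-06). Embryonic fibroblasts were called higher than adult ones by 0.77 ± 0.23 (adjusted p 0.0452), with no overlap. This call was lost without cardiomyocyte replicate 2 or 3, embryonic fibroblast replicate 1 or 3, or adult fibroblast replicate 1 or 2 (adjusted p 0.057 to 0.141). All embryonic and adult fibroblast arrays of Ppp1r3a read below the array medians (7.602 to 7.651), so its differences rest on dim values. Adult fibroblast arrays of Pfkm, Pfkl, Aldoc, Pdk1 and Pygl also read below those medians. Ppp1r3c, also called protein targeting to glycogen, had log2 levels of 10.26, 10.46 and 9.83 across cardiomyocyte arrays, 7.20, 7.36 and 7.97 across embryonic fibroblast arrays and 7.76, 7.89 and 7.64 across adult fibroblast arrays. It had the largest fall of the 35 genes between cardiomyocytes and embryonic fibroblasts, a log2 difference of -2.68 ± 0.21 (6.40-fold, adjusted p 7.32e-05), and differed by -2.42 ± 0.21 in adult fibroblasts (5.36-fold, adjusted p 1.73e-05). The fibroblast groups overlapped (adjusted p 0.456).

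Phosphoglucomutase links glucose phosphate to glycogen, and several genes bear its name. Pgm2 had log2 levels of 8.88, 8.55 and 8.85 across cardiomyocyte arrays, 9.86, 10.08 and 9.79 across embryonic fibroblast arrays and 10.59, 10.83 and 10.56 across adult fibroblast arrays. The groups rose in the opposite order to most genes, without overlap. Pgm2 was higher than in cardiomyocytes by 1.15 ± 0.12 in embryonic (2.22-fold, adjusted p 0.000321) and 1.90 ± 0.12 in adult fibroblasts (3.73-fold, adjusted p 2.83e-06), and lower in embryonic than adult fibroblasts by a log2 difference of -0.75 ± 0.12 (adjusted p 0.00227). RefSeq lists Pgm1 as a synonym of Pgm2 and the reverse, so the symbols have been exchanged over time. Which of them makes the enzyme of glycogen was not examined, so the rise of Pgm2 is not read as a rise of that enzyme. Pgm1, which is not on the list, fell, with log2 differences from cardiomyocytes of -1.38 ± 0.17 in embryonic (2.61-fold, adjusted p 0.000577) and -2.24 ± 0.17 in adult fibroblasts (4.74-fold, adjusted p 7.14e-06). Ugp2, which makes the activated sugar UDP-glucose, ranged in log2 level from 10.70 to 10.98 in cardiomyocytes, 10.31 to 10.99 in embryonic and 10.86 to 11.57 in adult fibroblasts. It was not called in any comparison, with embryonic minus adult fibroblasts at -0.56 ± 0.23 (adjusted p 0.129, and 0.037 without embryonic fibroblast replicate 3).

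All 4 glycogen breakdown genes were lower in both fibroblast groups than in cardiomyocytes, and 3 of the 4 were higher in embryonic than adult fibroblasts. The shares of all genes called lower than in cardiomyocytes were 11.1% in embryonic and 18.2% in adult fibroblasts. The share called higher in embryonic than adult fibroblasts was 11.2%. Pygm, the muscle phosphorylase, had log2 levels of 10.43, 10.24 and 9.94 across cardiomyocyte arrays, 8.68, 8.49 and 8.71 across embryonic fibroblast arrays and 7.94, 8.08 and 7.44 across adult fibroblast arrays. The groups did not overlap, and log2 differences from cardiomyocytes were -1.57 ± 0.18 in embryonic (2.98-fold, adjusted p 0.000378) and -2.38 ± 0.18 in adult fibroblasts (5.21-fold, adjusted p 6.21e-06). Pygb, the brain form that the heart also makes, read 10.53, 10.48 and 10.12 across cardiomyocyte arrays, 9.07, 8.93 and 9.24 across embryonic fibroblast arrays and 7.91, 8.02 and 7.59 across adult fibroblast arrays on the log2 scale. Its differences from cardiomyocytes were -1.29 ± 0.15 and -2.53 ± 0.15 in log2 units (adjusted p 0.000405 and 1.6e-06), and embryonic exceeded adult fibroblasts by 1.24 ± 0.15 (adjusted p 0.000359).

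Pygl, the liver form, read 8.80, 8.67 and 8.51 across cardiomyocyte arrays, 7.49, 7.41 and 7.74 across embryonic fibroblast arrays and 6.76, 6.63 and 7.13 across adult fibroblast arrays on the log2 scale. It too fell in order without overlap, by log2 differences from cardiomyocytes of -1.11 ± 0.14 and -1.82 ± 0.14 (adjusted p 0.000732 and 9.34e-06). Pygm minus Pygb within arrays changed by 0.15 from cardiomyocytes to adult fibroblasts on the log2 scale and overlapped, as did Pygm minus Pygl at -0.56 (-0.23 without adult fibroblast replicate 3). In embryonic fibroblasts Pygm lay lower against each, by changes of -0.28 and -0.46, without overlap. Phka1, the muscle regulatory subunit of phosphorylase kinase, ranged in log2 level from 8.81 to 9.26 in cardiomyocytes, 8.38 to 8.49 in embryonic and 8.15 to 8.32 in adult fibroblasts. It was lower than in cardiomyocytes by -0.59 ± 0.11 and -0.76 ± 0.11 (adjusted p 0.00527 and 0.000542).

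**Figure D5:**
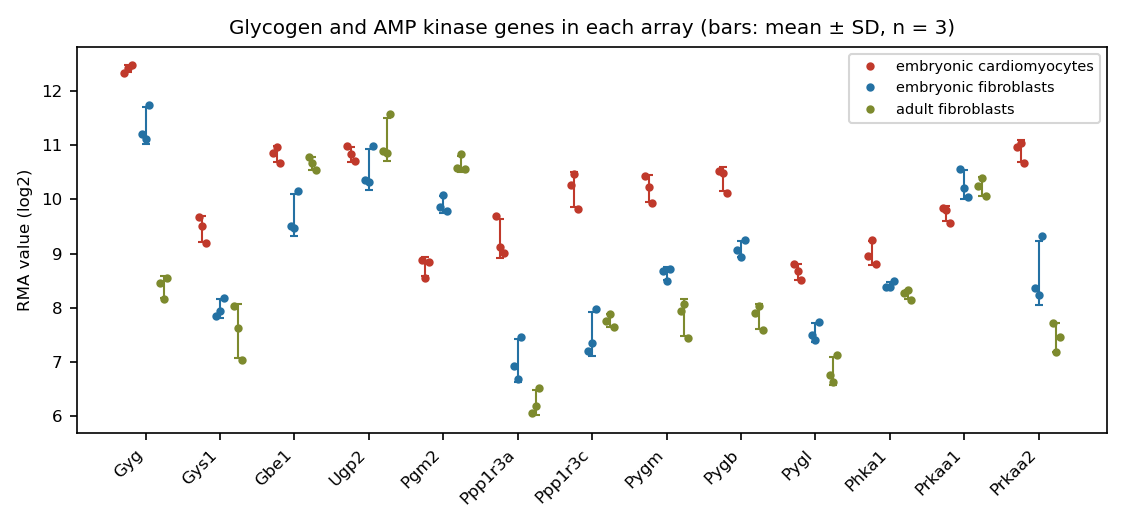
Log2 level of the 13 glycogen and AMP kinase genes in each array, grouped by gene and coloured by cell type, with bars of mean ± SD (n = 3). Gyg and Prkaa2 fall stepwise to 8.39 and 7.45 in adult fibroblasts, Pgm2 rises to 10.66, and Gbe1 is low in embryonic fibroblasts.

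AMP-activated protein kinase takes its catalytic subunit from Prkaa1 or Prkaa2, the latter prominent in muscle. Prkaa2 had log2 levels of 10.98, 11.04 and 10.67 across cardiomyocyte arrays, 8.36, 8.24 and 9.33 across embryonic fibroblast arrays and 7.73, 7.18 and 7.46 across adult fibroblast arrays. The groups did not overlap, and embryonic fibroblast replicate 3 lay about 1 log2 unit above its fellows. Log2 differences from cardiomyocytes were -2.25 ± 0.27 in embryonic (4.77-fold, adjusted p 0.000491) and -3.44 ± 0.27 in adult fibroblasts (10.9-fold, adjusted p 8.45e-06). Between the fibroblast groups it was 1.19 ± 0.27 (adjusted p 0.0122).

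Prkaa1 moved the other way, with log2 levels of 9.84, 9.80 and 9.57 across cardiomyocyte arrays, 10.56, 10.21 and 10.05 across embryonic fibroblast arrays and 10.25, 10.40 and 10.06 across adult fibroblast arrays. All fibroblast arrays lay above all cardiomyocyte arrays. It was called higher by 0.54 ± 0.14 in embryonic and 0.50 ± 0.14 in adult fibroblasts on the log2 scale (adjusted p 0.0252 and 0.0219). The first call was lost when any 1 cardiomyocyte array, or embryonic fibroblast replicate 1 or 2, was left out (adjusted p 0.0506 to 0.0893). The second was lost without cardiomyocyte replicate 3 or adult fibroblast replicate 1 or 2 (0.0566 to 0.0806). Prkaa2 minus Prkaa1 within arrays ran from 1.10 to 1.24 in cardiomyocytes, -2.21 to -0.72 in embryonic and -3.22 to -2.53 in adult fibroblasts. The change was -2.79 in embryonic and -3.94 in adult fibroblasts, the widest shift of the 11 pairs in both comparisons with cardiomyocytes (exact permutation p 0.1 in each, the smallest possible).

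Other genes of the same pathways were counted in lists that hold none of the 39 genes. Among other glycolysis and uptake genes, 0 of 16 were called between embryonic fibroblasts and cardiomyocytes by limma (3 had an unadjusted p under 0.05). Between embryonic and adult fibroblasts 1 was higher and 1 lower, and 3 were higher and 3 lower in adult fibroblasts than in cardiomyocytes. Of all genes, 21.4%, 19.5% and 35.6% were called in these comparisons. Bpgm, bisphosphoglycerate mutase of red cells, was lower in adult fibroblasts than in cardiomyocytes and embryonic fibroblasts (adjusted p 0.000156 and 0.000281). Between embryonic fibroblasts and cardiomyocytes Bpgm was not called (mean log2 levels of 8.53 and 8.45, adjusted p 0.744). The red cell marker sum differed between all groups, at 7898 to 10320 in cardiomyocytes, 3623 to 3868 in embryonic and 922.4 to 967.5 in adult fibroblasts, and its part was not tested. Its called markers were the globin genes Hbb-y, Hba-x and Hbb-bh1, while Alas2, Slc4a1, Epb42 and Rhag were called in no comparison. Txnip, which restrains glucose uptake, was lower in adult fibroblasts than in cardiomyocytes by -1.15 ± 0.27 and the neuronal-type transporter Slc2a3 by -0.77 ± 0.15, while the transporter Slc2a10 was higher by 0.87 ± 0.13 in log2 difference.

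Of 17 genes of pyruvate dehydrogenase and lactate, 10 were lower and 1 higher in embryonic fibroblasts than in cardiomyocytes, 12 lower and 0 higher in adult fibroblasts, and 5 higher and 0 lower in embryonic than adult fibroblasts. Of all genes, 11.1%, 18.2% and 11.2% were called in the leading direction of these comparisons. The count of 10 was 6 without embryonic fibroblast replicate 1 or 2, and the count of 5 was 3 without embryonic fibroblast replicate 3. Pdk3, another pyruvate dehydrogenase kinase, had log2 differences of -1.17 ± 0.20, 2.15 ± 0.20 and -3.32 ± 0.20 for embryonic fibroblasts minus cardiomyocytes, embryonic minus adult fibroblasts and adult fibroblasts minus cardiomyocytes. All 3 were called. Pdk4 followed in the same order with -0.64 ± 0.20, 1.15 ± 0.20 and -1.79 ± 0.20, all called as well. The first of these Pdk4 calls lay close to the threshold, at an adjusted p of 0.0485. In adult fibroblasts Pdk2 was lower than in cardiomyocytes by -1.31 ± 0.17 and Pdha1, the catalytic subunit those kinases act on, by -1.28 ± 0.15 in log2 difference.

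Among 19 further glycogen genes, 7 were lower and 2 higher in embryonic fibroblasts than in cardiomyocytes, 9 lower and 2 higher in adult fibroblasts, and 7 higher and 1 lower in embryonic than adult fibroblasts. Of all genes, 11.1%, 18.2% and 11.2% were called in the leading direction of these comparisons. The 7 lower genes became 3 to 4 without cardiomyocyte replicate 1 or 2 or embryonic fibroblast replicate 1 or 2, and the 7 higher ones 4 without embryonic fibroblast replicate 3. Phka2, the liver-type regulatory subunit of phosphorylase kinase, fell from cardiomyocytes by log2 differences of -1.25 ± 0.15 in embryonic and -2.51 ± 0.15 in adult fibroblasts. Phkb, the shared regulatory subunit of that kinase, differed by -0.88 ± 0.22 and -1.90 ± 0.22. Pgm5, a muscle relative of phosphoglucomutase, differed by -1.01 ± 0.30 and -1.76 ± 0.30, and all of these were called. Pgm3, counted in this list by its name, is an enzyme of the hexosamine route. It was 1 of the 2 higher genes in both comparisons with cardiomyocytes and the 1 lower gene in embryonic than adult fibroblasts. That lower call was lost without any single embryonic fibroblast array.

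The 19 partners of AMP kinase showed no single direction. In embryonic fibroblasts 6 were higher and 4 lower than in cardiomyocytes, in adult fibroblasts 5 higher and 4 lower, and embryonic against adult fibroblasts gave 3 higher and 3 lower. Of all genes, 10.3% were higher and 11.1% lower in the first comparison, 17.4% and 18.2% in the second, and 11.2% and 8.34% in the third. The count of 6 was 2 to 3 without cardiomyocyte replicate 1 or 3 or embryonic fibroblast replicate 1 or 2. Prkag2, a nucleotide-sensing subunit known from the heart, was lower than in cardiomyocytes by -1.62 ± 0.12 in embryonic and -2.08 ± 0.12 in adult fibroblasts on the log2 scale. Tbc1d4, a regulator of GLUT4 traffic, was 2.01-fold lower in embryonic and 3.06-fold lower in adult fibroblasts, with a log2 difference of -1.61 ± 0.14 in the latter. The folliculin partners Fnip1 and Fnip2 were higher instead, Fnip1 by 0.79 ± 0.09 and 1.53 ± 0.09 and Fnip2 by 0.53 ± 0.09 and 1.65 ± 0.09, each called.

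Cardiomyocyte, cell division, endothelial and macrophage lists were counted in the same comparisons. Of the 10 cardiomyocyte markers, 7 were lower in embryonic and 9 in adult fibroblasts than in cardiomyocytes, and 9 were higher in embryonic than adult fibroblasts, with 0 called in the opposite direction in each comparison. Their median log2 differences were -1.404, -4.546 and 3.002. Beside these counts, 11.1%, 18.2% and 11.2% of all genes were called in the leading direction of the comparisons. The 5 measured cell division genes were all called higher in embryonic than adult fibroblasts, and their summed level was 8585 to 9571 in cardiomyocytes, 4504 to 6871 in embryonic and 616.5 to 783.7 in adult fibroblasts. Endothelial markers were higher in embryonic fibroblasts than in cardiomyocytes in 7 of 7 cases (3 to 4 without cardiomyocyte replicate 2 or embryonic fibroblast replicate 1 or 2), with sums of 9250 to 12960 against 3060 to 4688, and 4885 to 11830 in adult fibroblasts. Macrophage markers were higher in adult fibroblasts than in cardiomyocytes in 7 of 7 cases, with sums of 4830 to 8781 against 1653 to 1875, and 2898 to 4378 in embryonic fibroblasts. The shares of all genes called higher than in cardiomyocytes were 10.3% in embryonic and 17.4% in adult fibroblasts. Smooth muscle and pericyte markers took both directions in every comparison. What part any of these lists had in the values of the 35 genes was not tested.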

How the data were processed

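RNA of 9 samples was extracted with Trizol and labelled with biotin, per the labels' protocols. RMA, named without a version in the submitters' processing notes, gave the deposited log2 values. RMA corrects background, normalizes arrays to each other and summarizes probes. The log base is not stated, and the deposited values, 2.703 to 14.197, were read as log2, RMA's usual scale. They hold no background measure, and RMA compresses differences between dim genes. The authors' build and annotation are not stated in the sources used here.

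The platform annotation gave the gene names: of 28767 probes, 21776 had a single symbol, 1618 several and 5373 none. Only the first kind was used. Symbols were checked through the Entrez identifier against RefSeq's GRCm38.p6 table, where 21686 matched and 0 changed. Gapdh had 25 probes shared with other genes and 0 of its own. The table held 0 columns of other samples. Each gene was represented by its brightest probe, and 993 of the 19933 genes had several.

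Groups and replicate numbers came from the sample titles. A mean for each group was fitted with limma 3.58.1 (lmFit, eBayes) in R 4.3.3 over all 9 arrays, which share an estimate of the spread (9.21 degrees of freedom at the median), and dim genes were kept. Tests were two-sided. Isoform pairs were compared by an exact permutation test. The scripts were tested on simulated data. Promoters were searched in Python 3.11.15, and figures drawn with matplotlib 3.10.9. The number of arrays, 3 a group, limits the precision.

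Every listed gene is named. Array values are given for genes with a called log2 difference of at least 1 and for their isoform partners, and ranges for the rest. Of each other pathway list, at most 4 called genes with the largest difference are named, and Pgm3 besides. The genes and lists were chosen with earlier results of these data known, so none of them is independent of those results. Alternatives were a replicate block, median centring, quantile normalization, a filter on dim genes, the mean of a gene's probes, array weights, a fit of the 2 groups compared, a trended robust prior and leaving out each array. The use of probes with a RefSeq transcript was added after seeing the data.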

Additional observations from a re-analysis of the deposited data

How the results depend on the processing

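Of 105 results (35 genes in 3 comparisons) 79 were called, and 72 of these were called in the same direction under all 18 alternatives. Over the alternatives, the genes called lower in embryonic fibroblasts than in cardiomyocytes numbered 23 to 30 and those higher 2 to 3. Embryonic fibroblasts exceeded adult ones for 14 to 17 genes and lay below for 3 to 5, and adult fibroblasts lay below cardiomyocytes for 27 to 28 and above for 3 to 4. None of these counts moved by over 1.5 times. Hk1 between embryonic fibroblasts and cardiomyocytes turned from 0.03 to -0.62 with the mean of its probes (adjusted p 0.00929) and to -1.27 with the probe of RefSeq transcripts (adjusted p 0.00514), because its probes differ. Hk2 minus Hk1 in that comparison went from -0.70 to 0.60 with that probe. The titles share replicate numbers, but deviations of same-numbered arrays correlated between -0.195 and 0.198, so the numbers were not taken as a pairing. With the replicate number as a block, 102 of the 105 results kept their side of the threshold. Pfkp between the fibroblast groups was lost, and Slc2a1 (adult fibroblasts against cardiomyocytes) and Pgam1 (embryonic fibroblasts against cardiomyocytes) were gained. The dim filter left out 5265 genes and 0 of the 35.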

Other observations

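The branch that draws on glycolysis for hexosamines and UDP-sugars, the building blocks of glycosylated proteins and matrix glycans, ran against the glycolytic genes. Of its 7 measured genes, 4 were called higher and 1 lower in embryonic fibroblasts than in cardiomyocytes, and 6 higher and 1 lower in adult fibroblasts. Embryonic fibroblasts were lower than adult ones for 5 of the 7 and higher for 0. Of all genes, 10.3%, 17.4% and 8.34% were called in the leading direction of these comparisons. Gfpt2, which commits sugar to hexosamine synthesis, had mean log2 levels of 8.08 in cardiomyocytes, 10.25 in embryonic and 12.66 in adult fibroblasts. Its log2 difference was 4.58 ± 0.18 between adult fibroblasts and cardiomyocytes (23.9-fold, adjusted p 2.15e-07) and 2.17 ± 0.18 between embryonic fibroblasts and cardiomyocytes (4.49-fold, adjusted p 8.15e-05). Ugdh, which makes the UDP-glucuronate of matrix glycans, was higher in adult fibroblasts than in cardiomyocytes by 2.90 ± 0.16 (7.44-fold), Uap1, which makes UDP-N-acetylglucosamine, by 2.36 ± 0.11 (5.12-fold) and Gnpnat1, an enzyme of the same route, by 1.12 ± 0.11 (2.17-fold). The 10 fibroblast markers moved with this branch, with sums of 4562 to 6045 in cardiomyocytes, 14480 to 16740 in embryonic and 31740 to 35060 in adult fibroblasts, and their part was not tested.

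Genes of the hypoxia response took both directions. Of 20 genes, 3 were lower and 2 higher in embryonic fibroblasts than in cardiomyocytes, 3 lower and 8 higher in adult fibroblasts, and embryonic against adult fibroblasts gave 2 higher and 6 lower. Of all genes, 21.4%, 35.6% and 19.5% were called in these comparisons, in either direction. The 3 lower in embryonic fibroblasts than in cardiomyocytes became 5 without adult fibroblast replicate 3, and the 6 lower in embryonic than adult fibroblasts became 3 without embryonic fibroblast replicate 1. Bnip3, a mitochondrial protein induced in low oxygen, was lower than in cardiomyocytes by -1.54 ± 0.23 in embryonic and -2.32 ± 0.23 in adult fibroblasts on the log2 scale, and Egln1, an oxygen-sensing hydroxylase, by -1.53 ± 0.15 in adult fibroblasts. Epas1, an oxygen-regulated factor, was higher in adult fibroblasts than in cardiomyocytes by 1.64 ± 0.31, and the peptide hormone gene Adm by 1.95 ± 0.42. Of 7 pentose phosphate genes, 1 was higher and 0 lower in embryonic fibroblasts than in cardiomyocytes, 1 higher and 2 lower in adult fibroblasts than in cardiomyocytes, and 1 higher and 2 lower in embryonic than adult fibroblasts. Without adult fibroblast replicate 3, 4 were higher in adult fibroblasts than in cardiomyocytes and 4 lower in embryonic than adult fibroblasts, and the latter count was 0 to 1 without any other single array. Of 8 gluconeogenesis genes, 0 were higher and 1 lower in embryonic fibroblasts than in cardiomyocytes, 1 higher and 2 lower in adult fibroblasts than in cardiomyocytes, and 1 higher and 0 lower in embryonic than adult fibroblasts. Both lists stand beside the same shares of all genes, 21.4%, 35.6% and 19.5%.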
